A study of Arabidopsis thaliana with 21 samples.

Results

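The response of root genes to nitrate was compared between wild-type Arabidopsis and a line with raised KIN10, over 12 of the 21 libraries of the series. The members are the 1128 genes that the authors listed for nitrate in either genotype, 770 for the wild type and 862 for the KIN10 line, and 504 of them are in both tables. The wild type was Landsberg erecta (Ler), and the other line, KIN10ox, carried KIN10 with an HA tag under the 35S promoter in the same accession. Seedlings of both genotypes grew for 7 days with 5 mM nitrate and then 2 days without nitrogen, and roots were taken 1 h after KNO3 or, as the control, KCl was given at 5 mM. Each of the 4 groups had 3 libraries with 19703176 to 20235235 mapped fragments, of which the listed genes held 3.89 to 9.84%. The 35S promoter is active in most tissues, and the labels do not say how many transgenic lines were used. One growth note of the KIN10ox libraries speaks of wild-type roots, and KIN10 itself is not among the listed genes, so the genotype label was not checked against it. None of the 13 root cell type markers is in the tables, so the tissue label was not checked against these either.

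Nitrate is both a nutrient and a signal in roots. Within an hour it raises transcripts for its own uptake and reduction, for the plastid enzymes that supply reductant, for cytokinin synthesis and for several transcription factors, largely through NLP transcription factors such as NLP7. SnRK1, the kinase complex whose catalytic activity KIN10 provides, works when the energy supply of the cell runs down and favours catabolic over biosynthetic programmes.

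For each gene the response is the log2 ratio of KNO3 to KCl, and the response difference is the response in KIN10ox minus the response in Ler. It was estimated from the counts of all 12 libraries with edgeR for the 972 genes with enough reads, and the other 156 were not tested. No response difference passed an adjusted p of 0.05 (0% of 972 genes). The lowest adjusted p, 0.0511, was shared by GAPA-2 and FNR2, nuclear genes that encode chloroplast proteins, and by NIA1, a nitrate reductase. GAPA-2 and FNR2 had been listed for KIN10ox alone, and NIA1 for both genotypes. At an unadjusted p under 0.05 there were 163 genes with a lower response in KIN10ox (16.8%) and 24 with a higher one (2.47%). DESeq2 on the same counts called 38 genes lower and 3 higher, and edgeR called 23 genes without library 2 of KIN10ox with KCl and 15 without library 1 of Ler with KCl. The single-gene differences below are therefore given as estimates with their SE, and a gene is said to be called only where a named test passed. By the labels each library is a biological replicate.

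Over all genes tested, the response was lower in KIN10ox in sign for 709 genes (72.9%), with a median difference of -0.26 on the log2 scale. This balance depended on how libraries were scaled. With the scaling that the authors' deposited fold changes imply, the response difference of every gene moved up by 0.096, the median became -0.163 and 65.8% of genes were lower. With TMM factors over the listed genes the share lower was 48.9%, since that method centres the listed genes, and 93 genes were higher and 75 lower at an unadjusted p under 0.05. The choice of genes by the authors also enters. Rises listed for Ler alone had a median difference of -0.48 and falls listed for KIN10ox alone one of -1.12, and such genes were listed for passing in one genotype of these same libraries. Among genes listed in both tables the median was -0.21 for 360 rises and -0.08 for 134 falls.

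Genes were sorted by description, with no test, where the responses were at least 2-fold apart. The response was at least 2-fold lower in KIN10ox for 141 genes (14.5%) and at least 2-fold higher for 25 (2.57%). The 141 comprised 33 damped rises, 22 deeper falls, 78 KIN10ox-only falls, 7 genes with opposite responses and 1 other. Damped rises were at least 2-fold up in Ler, with a smaller rise, no change or a fall of under 2-fold in KIN10ox. Deeper falls were at least 2-fold down in Ler and further down in KIN10ox. KIN10ox-only falls were less than 2-fold either way in Ler and at least 2-fold down in KIN10ox. The 25 comprised 4 larger rises, 9 KIN10ox-only rises, 6 damped falls, 1 gene with opposite responses and 5 others. The genes on either side of the lower limit had differences of -1.0 and -0.99, and those at the upper limit 1.03 and 0.98. Taken relative to the median difference of all genes, the limit gave 96 genes lower and 41 higher. Without library 1 of Ler with KCl the deeper falls numbered 5, and without library 3 of Ler with KNO3 the higher responses numbered 38.

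**Figure D1:**
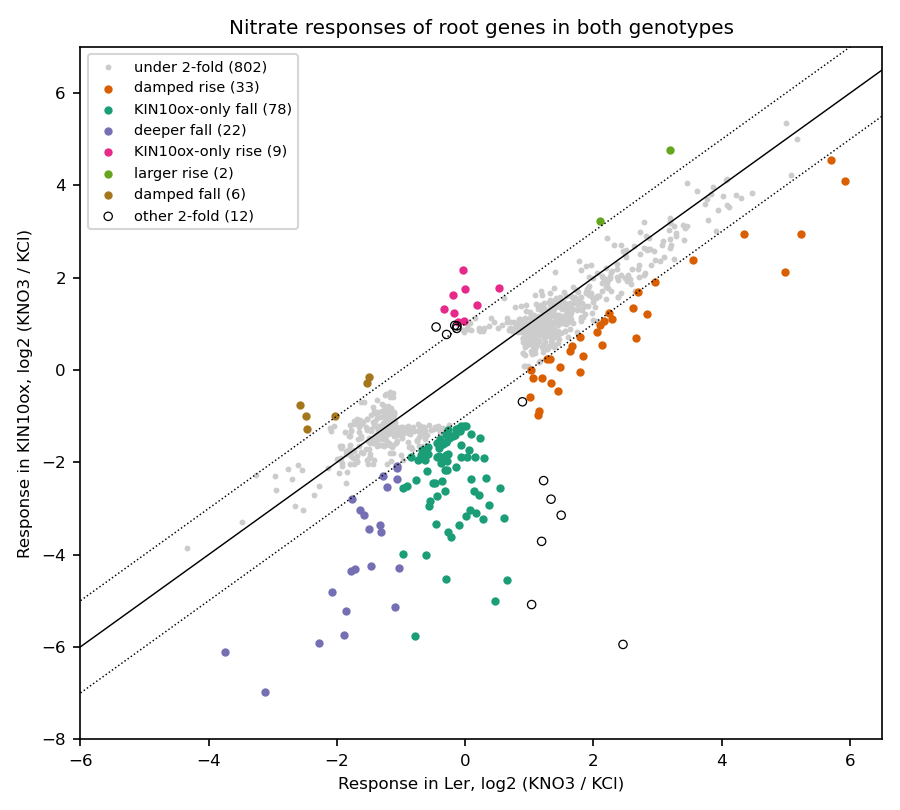
Response to nitrate in Ler (horizontal axis) and in KIN10ox (vertical axis), each as log2 of KNO3 over KCl, for root genes tested with no group at 0. Colours mark the classes at least 2-fold apart, the solid line marks equal responses and the dotted lines a 2-fold difference; more genes lie under the lower dotted line than above the upper one, and the 78 KIN10ox-only falls form the largest class.

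A response can be lower because the KCl level was already different, because the KNO3 level was, or through both. The share of each response difference that the KCl libraries carry was computed as minus the KIN10ox-to-Ler difference with KCl over the response difference. A share of 0.7 or more was named a KCl-level shift, 0.3 or less a KNO3-level shift, and values between them a difference at both levels. The KCl libraries enter both quantities, so the shares describe the estimates and do not test them. Of the 141 lower responses, 36 were KCl-level shifts, 39 were KNO3-level shifts and 66 lay at both levels. The 33 damped rises split into 13, 8 and 12 genes in that order, the 22 deeper falls into 9, 2 and 11, and the 78 KIN10ox-only falls into 12, 27 and 39. The genotypes themselves differed with KCl in 75 genes higher in KIN10ox (7.72%) and 59 lower (6.07%) by edgeR at an adjusted p under 0.05, and with KNO3 in 26 higher (2.67%) and 87 lower (8.95%). With TMM factors these became 57 higher and 70 lower with KCl, and 56 higher and 42 lower with KNO3. Leaving out 1 library at a time gave as few as 81 calls with KCl (without library 2 of Ler with KCl) and 58 with KNO3 (without library 1 of Ler with KNO3), and 61 KNO3-level shifts without library 3 of KIN10ox with KNO3.

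**Figure D2:**
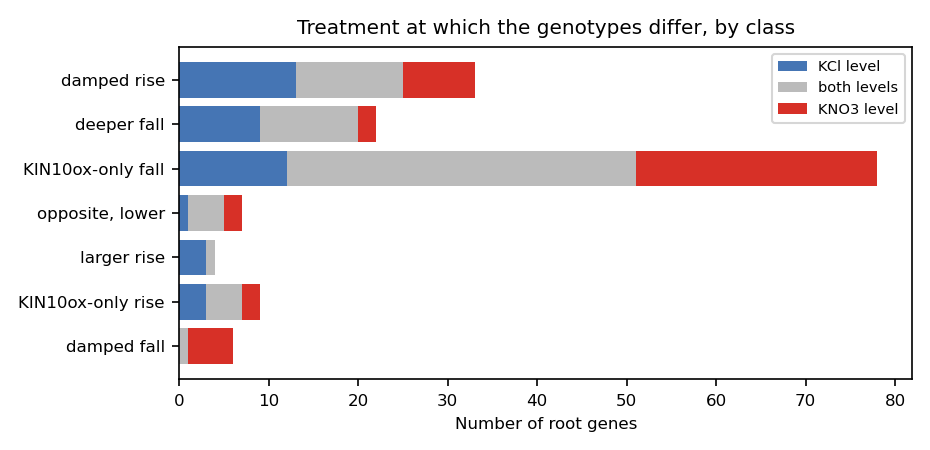
Number of root genes in each class of response difference (bars start at 0), split by the treatment at which KIN10ox and Ler differed. Damped rises hold 13 KCl-level shifts, 12 genes at both levels and 8 KNO3-level shifts, while KIN10ox-only falls hold 12, 39 and 27.

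NIA1 and NIA2, which encode the nitrate reductases that turn nitrate into nitrite, were higher in KIN10ox before nitrate, and their folds with nitrate were smaller by less than the 2-fold limit of the classes. NIA1 (chromosome 1, 29235721 to 29239484, minus strand) measured 111, 119.6 and 113 FPKM in Ler after KCl, and 883, 896 and 1031 FPKM with KNO3. In KIN10ox it measured 214, 213 and 246 FPKM after KCl and reached 1169, 1220.3 and 1075 FPKM after KNO3. All KIN10ox libraries lay above all Ler libraries at both treatments, more so with KCl. The KIN10ox-to-Ler difference of the NIA1 level was 0.97 ± 0.09 (SE) on the log2 scale with KCl (edgeR adjusted p = 5.3e-05) and 0.30 ± 0.09 with KNO3 (adjusted p = 0.0470). The fold of the NIA1 mean with nitrate was 8.19 in Ler and 5.15 in KIN10ox, and the response difference was -0.67 ± 0.13 (edgeR unadjusted p = 0.000158, DESeq2 adjusted p = 0.000792). With TMM factors it was -0.37 (edgeR unadjusted p = 0.0927). In FPKM the rise of NIA1 was not smaller in KIN10ox, at 930 ± 43.9 (SE, n = 3 libraries a group) against 822 ± 47.6.

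NIA2 (chromosome 1, 14158452 to 14161938, plus strand) showed the same order at smaller size, with 377 ± 6.91 FPKM (SD, n = 3) in Ler and 517 ± 24.0 in KIN10ox with KCl. Its level with KCl differed by 0.46 ± 0.07 on the log2 scale (edgeR adjusted p = 0.00116) and its response by -0.31 ± 0.10. ASN2, an asparagine synthetase, was also higher with KCl in KIN10ox, by 0.33 ± 0.09 (edgeR adjusted p = 0.0313), and its response difference was -0.37 ± 0.13. GLT1, the NADH-dependent glutamate synthase, had a response difference of -0.30 ± 0.17. With TMM factors the response differences came near 0, at -0.027 for NIA2, -0.092 for ASN2 and -0.027 for GLT1. ASN2 had been listed for Ler alone. NIR1, the nitrite reductase that follows NIA1 and NIA2, had nearly equal levels in both genotypes. Its mean rose from 107 ± 7.41 to 1424 ± 20.5 FPKM in Ler and from 118 ± 11.8 to 1427 ± 110.4 FPKM in KIN10ox, and its response difference of -0.15 ± 0.13 turned to 0.15 with TMM factors. Of the 7 assimilation genes tested, all 7 had a lower response in sign and 3 a lower response at an unadjusted p under 0.05 (NIA1, NIA2 and ASN2), where 72.9% of all genes tested were lower in sign and 16.8% at that p.

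HRS1, a nitrate-induced repressor of the NIGT1 family, shared the pattern of NIA1. It measured 6.70, 8.02 and 8.03 FPKM in Ler with KCl and 12.7, 14.7 and 14.7 FPKM in KIN10ox with KCl. With KNO3 it measured 82.1, 78.9 and 80.8 FPKM in Ler and 101, 87.0 and 107 FPKM in KIN10ox. Both treatments separated the genotypes without overlap, and the log2 difference of the HRS1 level was 0.89 ± 0.12 with KCl (edgeR adjusted p = 0.000609) and 0.29 ± 0.11 with KNO3 (adjusted p = 0.117). The response difference was -0.60 ± 0.17 (DESeq2 adjusted p = 0.0365), again with a rise in FPKM that was no smaller in KIN10ox, 84.5 against 73.0.

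The 250 bases before the annotated start of NIA1 and of HRS1 are shown because NIGT1 proteins such as HRS1 are known to bind DNA with the letters GAATC, and both genes were higher in KIN10ox before nitrate. Sequences were read from the reference genome of the TAIR10 assembly, 5′ to 3′ on the strand of the gene, at chr1:29239485-29239734 on the minus strand for NIA1 and at chr1:4556628-4556877 on the plus strand for HRS1. Capitals mark GAATC or its reverse complement.
NIA1: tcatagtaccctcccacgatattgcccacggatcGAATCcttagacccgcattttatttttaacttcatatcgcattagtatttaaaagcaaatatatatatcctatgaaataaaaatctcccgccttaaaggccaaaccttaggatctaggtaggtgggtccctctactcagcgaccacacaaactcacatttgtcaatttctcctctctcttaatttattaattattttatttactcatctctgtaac
HRS1: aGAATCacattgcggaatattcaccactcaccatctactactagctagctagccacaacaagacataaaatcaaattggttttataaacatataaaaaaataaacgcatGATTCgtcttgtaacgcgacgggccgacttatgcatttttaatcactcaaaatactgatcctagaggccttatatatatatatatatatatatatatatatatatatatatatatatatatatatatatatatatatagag
Over 300 bases from 250 before to 50 after the start, GAATC on either strand was found in 48.5% of the 33 damped rises, in 44.7% of the genes tested and in 45.1% of the promoters of 27443 protein-coding genes. The match is a description of these letters, and the share in the falls is given with the other motifs below.

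SKOR, an outward potassium channel of the stele that loads potassium into the xylem, had a KCl-level shift of over 2-fold. Its level with KCl was 0.44, 0.56 and 0.48 FPKM in Ler and 1.25, 1.45 and 1.21 FPKM in KIN10ox. With KNO3 it was 5.22, 5.4 and 6.17 FPKM in Ler and 7.77, 5.05 and 7.40 FPKM in KIN10ox. The genotypes were separate with KCl and overlapped with KNO3. The KCl difference of SKOR was 1.44 ± 0.21 on the log2 scale (edgeR adjusted p = 0.000894) and the response difference -1.16 ± 0.27 (DESeq2 adjusted p = 0.0280). The transmembrane protein gene AT1G49000 also lay apart with KCl, at 2.02, 2.81 and 1.72 FPKM in Ler and 4.1, 4.05 and 4.01 FPKM in KIN10ox, and had a response difference of -1.09 ± 0.30. AT5G28610 had one of -1.0 ± 0.43. AT1G49000 had been listed for Ler alone as a rise, and SKOR and AT5G28610 for both genotypes.

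Of the 9 cytokinin genes tested, edgeR called 2 higher in KIN10ox with KCl, CYP735A1 and CYP735A2 (7.72% of all genes tested were called higher). With KNO3 it called 0 in either direction (11.6% of all genes tested were called). IPT3 makes the first cytokinin precursor in response to nitrate, and CYP735A1 and CYP735A2 hydroxylate it to trans-zeatin forms that move to the shoot. CYP735A2 measured 2.15, 3.01 and 3.54 FPKM in Ler and 6.27, 6.64 and 8.21 FPKM in KIN10ox with KCl, and reached 22.9, 17.6 and 26.3 FPKM in Ler and 21.5, 19.4 and 35.5 FPKM in KIN10ox with KNO3. The genotypes were thus separate with KCl, where edgeR called CYP735A2 higher by 1.24 ± 0.27 (adjusted p = 0.0106), and overlapped with KNO3. The response difference was -1.05 ± 0.36 for CYP735A2 and -0.80 ± 0.28 for CYP735A1. IPT3 measured 0.90, 1.23 and 1.67 FPKM in Ler and 1.37, 1.92 and 1.96 FPKM in KIN10ox with KCl, and 20.6, 17.4 and 19.5 FPKM in Ler and 14.99, 12.1 and 15.6 FPKM in KIN10ox with KNO3. Here the KCl libraries overlapped and all KNO3 libraries of KIN10ox lay below those of Ler. The IPT3 response difference was -0.90 ± 0.29. ARR7, a type-A response regulator induced by cytokinin, had one of -0.80 ± 0.31. All 9 had a lower response in sign (72.9% of all genes tested) and 4 an unadjusted p under 0.05 (16.8% of all genes tested), those being IPT3, CYP735A1, CYP735A2 and ARR7.

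The root ferredoxin-NADP reductases RFNR1 and RFNR2, which pass electrons from NADPH to ferredoxin for nitrite reduction, differed at the KNO3 level. RFNR1 measured 55.9, 58.3 and 57.6 FPKM in Ler and 52.7, 54.3 and 61.9 FPKM in KIN10ox with KCl. With KNO3 it reached 589, 541 and 553 FPKM in Ler and 427, 435 and 407 FPKM in KIN10ox. With KCl the genotypes overlapped, and with KNO3 every KIN10ox library was below every Ler library. The RFNR1 level with KNO3 differed by -0.41 ± 0.08 on the log2 scale (edgeR adjusted p = 0.00798), and the response by -0.39 ± 0.12 (DESeq2 adjusted p = 0.0401). RFNR2 with KNO3 was 2172, 2020.3 and 2106 FPKM in Ler and 1713, 1411 and 1796 FPKM in KIN10ox, a level difference of -0.35 ± 0.10 (edgeR adjusted p = 0.0383). Its response difference was -0.32 ± 0.14. With TMM factors the response differences came near 0, at -0.088 for RFNR1 and -0.049 for RFNR2. G6PD3, a plastid glucose-6-phosphate dehydrogenase that makes the NADPH, had a response difference of -0.24 ± 0.14, which became 0.045 with TMM factors. Of the 8 reductant genes tested, 2 had a lower response at an unadjusted p under 0.05, near the 16.8% of all genes tested.

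NRT2.6 and bHLH11, genes of low level, had KNO3-level shifts of over 2-fold. NRT2.6, bHLH11, LNK3 and SVL2 had been listed for Ler alone, so their rise in Ler is why they appear. NRT2.6, a member of the high-affinity nitrate transporter family, measured 1.94, 1.97 and 0.86 FPKM in Ler and 0.12, 0.22 and 0.12 FPKM in KIN10ox with KNO3. With KCl it measured 0.86, 0.98 and 0.30 FPKM in Ler and 0.34, 0.25 and 0.28 FPKM in KIN10ox. The level with KNO3 differed by -3.34 ± 0.50 (edgeR adjusted p = 0.00164) and the response by -2.04 ± 0.70. With KCl the NRT2.6 level also tended lower in KIN10ox, by -1.30 ± 0.47 (edgeR adjusted p = 0.0881). bHLH11, a transcription factor of iron homeostasis, measured 2.1, 2.01 and 2.06 FPKM in Ler and 0.88, 0.62 and 0.82 FPKM in KIN10ox with KNO3. With KCl it measured 0.41, 0.62 and 0.71 FPKM in Ler and 0.72, 0.83 and 0.82 FPKM in KIN10ox. Its response was 1.78 in Ler and -0.03 in KIN10ox, a difference of -1.82 ± 0.40 (DESeq2 adjusted p = 0.0392), and its level with KNO3 differed by -1.41 ± 0.27 (edgeR adjusted p = 0.00602). None of the 6 iron deficiency genes tested had an unadjusted p under 0.05 for the response difference. LNK3, of a family of clock coactivators, had a response difference of -0.71 ± 0.21, under the 2-fold limit. SVL2 lay at both levels, with 0.46, 0.40 and 0.82 FPKM in Ler and 1.52, 0.97 and 0.87 FPKM in KIN10ox with KCl, and 1.67, 1.10 and 1.59 FPKM against 0.68, 0.99 and 0.71 FPKM with KNO3. The order of the genotypes was reversed between treatments, without overlap in either, and the difference of the SVL2 response was -1.91 ± 0.46 (DESeq2 adjusted p = 0.0131).

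**Figure D3:**
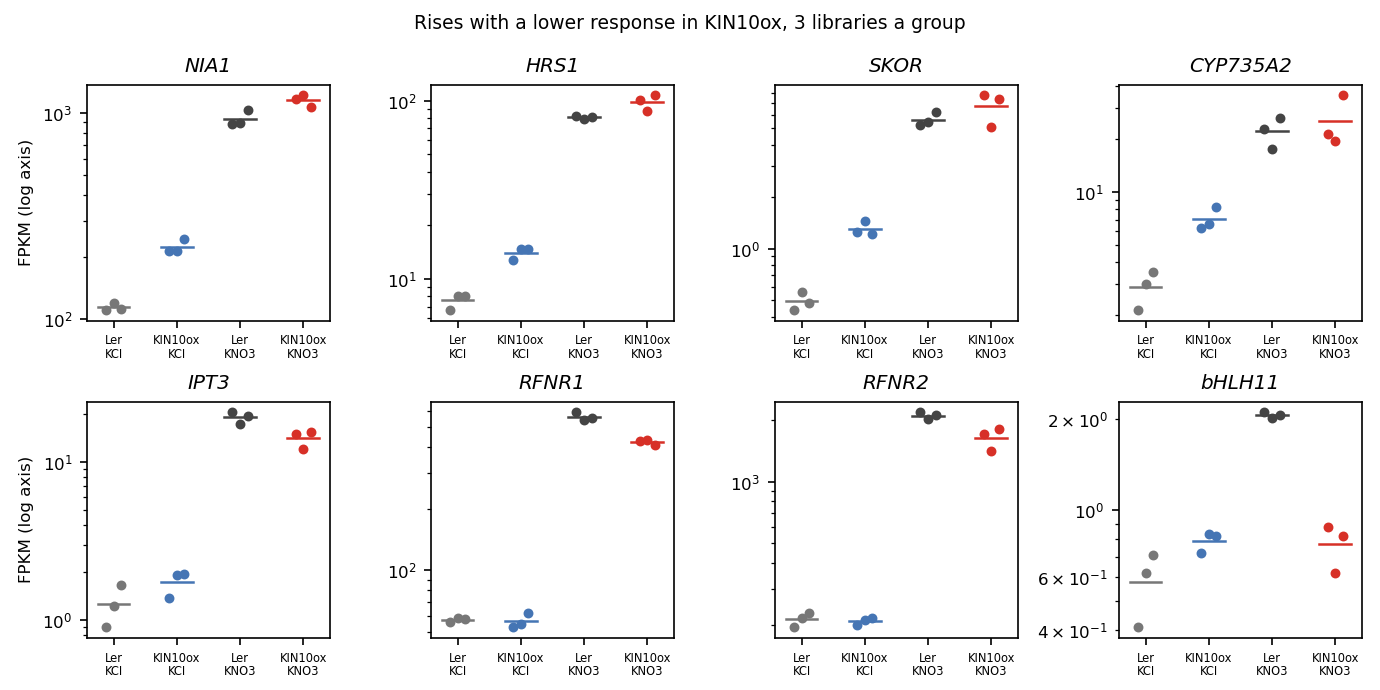
FPKM of 8 genes with a lower response in KIN10ox, on log axes, with 1 point a library and a line at the mean of the 3 libraries of each group. NIA1, HRS1, SKOR and CYP735A2 are raised in KIN10ox with KCl, while RFNR1, RFNR2 and bHLH11 are below Ler with KNO3 and IPT3 lies between these patterns.

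NPF6.3 and NRT2.1 gave similar folds in both genotypes, unlike NRT2.6 above. NPF6.3, the dual-affinity transporter and nitrate sensor, rose 6.88-fold in Ler and 6.24-fold in KIN10ox, and NRT2.1, the main high-affinity transporter, 2.85-fold and 2.62-fold. Their response differences of -0.14 ± 0.15 and -0.12 ± 0.14 turned to 0.17 for both with TMM factors. NRT2.1 has a close neighbour copy, so reads could be shared. The 6 transport genes tested included 1 with an unadjusted p under 0.05, NRT2.6, near the 16.8% of all genes tested that were lower at that p. CLCB, a vacuolar-type anion channel, was lower in KIN10ox by nearly the same amount at both treatments, -0.46 ± 0.10 with KCl (edgeR adjusted p = 0.0135) and -0.43 ± 0.10 with KNO3 (adjusted p = 0.0184). Its response difference was 0.02 ± 0.15.

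Among nitrate-responsive regulators, 2 of the 3 LBD repressors of nitrogen genes tested, LBD38 and LBD39, were lower in KIN10ox at both treatments. LBD37 was called at neither, with level differences of 0.14 ± 0.13 with KCl (edgeR adjusted p = 0.543) and -0.06 ± 0.13 with KNO3 (adjusted p = 0.772), and its response difference of -0.21 turned to 0.091 with TMM factors. LBD38 differed by -0.57 ± 0.13 with KCl (edgeR adjusted p = 0.0150) and by -0.56 ± 0.12 with KNO3 (adjusted p = 0.0118), so its response difference was 0.01 ± 0.17. LBD39 measured 4.29, 2.95 and 4.62 FPKM in Ler and 1.12, 1.03 and 1.62 FPKM in KIN10ox with KCl, and 42.3, 41.9 and 47.0 FPKM against 20.3, 18.1 and 24.7 FPKM with KNO3. All KIN10ox libraries were below all Ler libraries, and the LBD39 level differed by -1.65 ± 0.22 with KCl (edgeR adjusted p = 0.000606) and by -1.06 ± 0.18 with KNO3 (adjusted p = 0.00306). The response difference of LBD39 was thus 0.59 ± 0.29, a larger fold in KIN10ox from a lower start and to a lower level. BT1, a scaffold protein of nitrogen use, had the same order, with a KCl difference of -0.59 ± 0.15 (edgeR adjusted p = 0.0216) and a response difference of 0.26 ± 0.20. BZIP3, a bZIP transcription factor, had a response difference of -0.72 ± 0.32. Of 15 regulators tested, 12 had a lower response in sign, and 2 (HRS1 and BZIP3) had an unadjusted p under 0.05, neither far from the 72.9 and 16.8% of all genes tested. Both NLP genes in the tables had an unadjusted p above it.

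Other listed pathways gave few members. TDT, the vacuolar malate carrier, rose from 1.44 ± 0.15 to 25.02 ± 1.82 FPKM in Ler and from 2.07 ± 0.12 to 23.9 ± 2.62 FPKM in KIN10ox, a response difference of -0.58 ± 0.18 that lay at the KCl level (edgeR adjusted p of the KCl difference = 0.0249). The abscisic acid receptors PYL5 and PYL6 had response differences of -0.49 ± 0.23 and -0.53 ± 0.23, and PYL6 was called higher with KCl, by 0.80 ± 0.17 (edgeR adjusted p = 0.00872). None of the 4 phosphate status genes tested had an unadjusted p under 0.05, and no SnRK1 subunit is in the tables.

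Smaller folds do not have to mean smaller amounts. Of the 33 damped rises, 31 also had a smaller rise in FPKM in KIN10ox. So did 241 of the 288 genes that rose at least 2-fold in both genotypes (83.7%), and 194 of the 221 among these with a lower response in KIN10ox. The damped rises were chosen by a lower response in the same libraries, so a smaller rise in FPKM was largely fixed by the choice. With a 1.5-fold limit there were 102 damped rises, 43 at the KCl level, 27 at the KNO3 level and 32 at both, and 93 had the smaller rise in FPKM. Among these 102, the KCl libraries of KIN10ox lay wholly above those of Ler in 40 (19.2% of all genes tested), and the KNO3 libraries lay wholly below in 36 (28.2% of all genes tested). The 102 were chosen by a lower response in these same libraries, which favours both counts, so nothing is read from them.

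Falls formed the other side. Photosynthesis genes, which roots express weakly, had a lower response in KIN10ox in all 21 members tested of a list of 31, with a median difference of -1.68 and an unadjusted p under 0.05 in 15. All genes tested had a median of -0.26, and 16.8% were lower at that p. The authors had listed 20 of these 21 for KIN10ox alone, so they entered the tables through a fall in the same KIN10ox libraries. Of all 184 falls listed for KIN10ox alone, 183 had a lower response in sign, with a median of -1.12, and 74 had an unadjusted p under 0.05, so the signs of the photosynthesis genes were nearly fixed by the listing and nothing is read from them. The KCl libraries of KIN10ox differed among themselves in these genes, and each result is given with and without the libraries that stood high. The summed level of the 22 members in the tables was 503, 263 and 843 FPKM in libraries 1, 2 and 3 of KIN10ox with KCl, and 481, 249 and 287 FPKM in Ler with KCl. With KNO3 it was 107, 158 and 120.1 FPKM in KIN10ox and 231, 230.4 and 216 FPKM in Ler. The genotypes overlapped with KCl, and with KNO3 all 3 KIN10ox libraries were below all 3 of Ler. LHB1B1 and RBCS2B were listed at 0 in all Ler libraries with KNO3. Close copies can share reads, and LHB1B2 measured 68.4, 73.2 and 68.0 FPKM in those libraries, so a 0 may not mean that the transcript was absent.

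The summed level of markers of seeds and oil-storing seedlings was high in the same libraries, though not every member was. Of 15 such markers, 9 are in the tables, and all 5 of these that were tested had been listed for KIN10ox alone, so their fall in KIN10ox is why they appear. Their summed level was 37.0, 9.2 and 126 FPKM in libraries 1, 2 and 3 of KIN10ox with KCl. It was 4.41 to 8.84 FPKM in Ler with KCl, 3.72 to 9.60 in Ler with KNO3 and 2.09 to 2.9 in KIN10ox with KNO3, and no marker was at 0 in every library of a group. Libraries 1 and 3 of KIN10ox with KCl were thus the highest of all 12 in both sums. Library 1 of Ler with KCl, at 481 FPKM, was next in the photosynthesis sum. In the seed marker sum it lay within the range of the other Ler libraries. In library 1 of KIN10ox with KCl, ICL held 28.7 of the 37.0 FPKM. MLS (3.58 FPKM) and CRU3 (2.15 FPKM) were also above every Ler library there, but PER1 (0.06 FPKM) and CRA1 (0.62 FPKM) were not. The part of seed or green tissue in the falls was not tested, and in whole roots more cells of a kind and more RNA per cell cannot be told apart. Leaving out libraries 1 and 3 of KIN10ox with KCl leaves 1 library there, whose spread is taken from the other groups. The median difference of the photosynthesis list was then -0.41, against -0.31 over all genes tested. Of the 141 lower responses, 86 were still at least 2-fold lower, as were 43 of the 78 KIN10ox-only falls. The KCl calls between genotypes then numbered 43 in place of 134 (13.8% of genes tested). Leaving out high libraries of KIN10ox alone lowers these differences by construction, so library 1 of Ler with KCl was also left out, a choice made after seeing the data. With all 3 libraries left out the median of the photosynthesis list was -1.09, against -0.30 over all genes tested. Without library 1 of Ler alone the median was -2.45, against -0.24 over all genes tested. In that setting 19 members had a lower response at an unadjusted p under 0.05 by edgeR, as had 17.2% of all genes tested. Library 1 had the highest photosynthesis sum of the Ler libraries with KCl, so leaving it out makes these differences larger by construction. These settings show how far the estimates move with the choice of libraries, and nothing more is read from them. With all 3 left out the response difference had 6 calls by edgeR, and 69 genes were KIN10ox-only falls, where leaving out libraries of KIN10ox alone gave 1 call and 47 such falls.

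**Figure D4:**
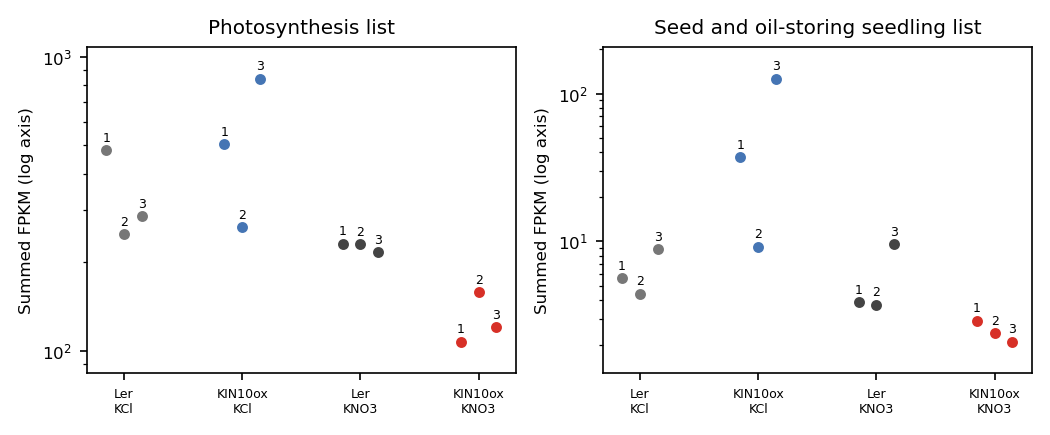
Summed FPKM per library, on log axes, of the 22 photosynthesis genes (left) and of the 9 seed and oil-storing seedling markers (right) that the tables hold. Numbers are the replicate numbers of the labels; libraries 1 and 3 of KIN10ox with KCl stand highest on both sides, and the KIN10ox libraries with KNO3 stand lowest.

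GAPA-2 and FNR2 had the lowest p of all genes, and their difference depended less on these libraries. Both had been listed for KIN10ox alone, so their fall in the same KIN10ox libraries is why they appear, and a lower response was nearly fixed by the listing. GAPA-2, a subunit of the chloroplast glyceraldehyde-3-phosphate dehydrogenase, measured 1.85, 0.94 and 1.19 FPKM in Ler and 2.34, 1.73 and 3.30 FPKM in KIN10ox with KCl. With KNO3 it measured 1.40, 1.49 and 1.67 FPKM in Ler and 0.25, 0.27 and 0.61 FPKM in KIN10ox. The genotypes overlapped with KCl and were wide apart with KNO3, where edgeR called GAPA-2 lower, at a log2 difference of -2.02 ± 0.41 (adjusted p = 0.00798). The response difference was -2.93 ± 0.54, and -2.42 without libraries 1 and 3. FNR2, the leaf-type ferredoxin-NADP reductase, measured 0.74, 0.45 and 0.69 FPKM in Ler and 1.10, 0.82 and 1.68 FPKM in KIN10ox with KCl, and 0.58, 0.78 and 0.61 FPKM against 0.12, 0.08 and 0.23 FPKM with KNO3. It had a response difference of -3.10 ± 0.58, and -2.56 without libraries 1 and 3. Neither gene responded to nitrate in Ler by more than 0.21 on the log2 scale.

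CAB1, a light-harvesting protein of photosystem II whose near-identical copies can share reads, had a difference that depended more on libraries 1 and 3. Its level with KCl was 53.4, 23.8 and 35.0 FPKM in Ler and 59.8, 22.4 and 114 FPKM in KIN10ox, and with KNO3 it was 32.0, 25.7 and 24.9 FPKM in Ler and 8.92, 11.1 and 9.51 FPKM in KIN10ox. The KCl libraries overlapped, and the KNO3 libraries of KIN10ox were the lowest. The response difference of CAB1 was -2.30 ± 0.63, and -0.75 without libraries 1 and 3. It was -1.10 where library 1 of Ler with KCl was left out too. That library was the highest of its group for CAB1, so leaving it out makes the difference larger by construction. The Rubisco small subunit genes RBCS1A and RBCS3B, which also have close copies, went from -1.25 ± 0.41 to -0.46 and from -3.86 ± 1.28 to -1.62 when the libraries were left out. PRK, the Calvin cycle phosphoribulokinase, went from -3.27 ± 0.77 to -2.10, and GAPB, the partner subunit of the dehydrogenase, from -1.97 ± 0.46 to -1.16. HCEF1, the plastid fructose-bisphosphatase, was listed at 0 in KIN10ox libraries 1 and 3 with KNO3 and at 0.05 FPKM in library 2. The photosystem I subunit gene PSAH2 went from -2.88 ± 0.85 to -1.46. With library 1 of Ler left out too, the differences were -0.79 for RBCS1A, -3.24 for RBCS3B, -2.93 for PRK, -1.51 for GAPB and -2.24 for PSAH2. It was the highest Ler library with KCl for each of these genes, so the same limit holds.

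The promoters of CAB1 and PRK are shown because both had a lower response in KIN10ox and hold the letters ACGTGNC, the core of the abscisic acid response element, close to the start. They lie at chr1:10477635-10477884 and chr1:11531949-11532198, both on the plus strand of TAIR10, and capitals mark ACGTGNC or its reverse complement, which overlap in CAB1.
CAB1: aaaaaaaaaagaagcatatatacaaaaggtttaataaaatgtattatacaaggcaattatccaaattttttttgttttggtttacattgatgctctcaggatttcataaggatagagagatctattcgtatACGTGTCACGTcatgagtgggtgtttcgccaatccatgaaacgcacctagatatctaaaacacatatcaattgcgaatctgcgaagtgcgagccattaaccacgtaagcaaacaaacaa
PRK: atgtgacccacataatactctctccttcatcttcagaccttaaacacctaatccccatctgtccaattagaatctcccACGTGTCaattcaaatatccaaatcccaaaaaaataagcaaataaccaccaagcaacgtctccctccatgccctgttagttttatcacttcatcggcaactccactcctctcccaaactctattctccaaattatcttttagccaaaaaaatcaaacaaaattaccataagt
In the same 300-base window ACGTGNC on either strand was found in 28.2% of the 78 KIN10ox-only falls and in 33.3% of the 21 photosynthesis genes tested, against 13.5% of all genes tested and 10.3% of all promoters. GATAAG, the I-box of light-regulated genes, was found in 33.3 and 38.1% of these sets, against 17.3 and 14.6%. CACGTG, the G-box, which shares letters with ACGTGNC, was found in 16.7 and 19.0%, against 9.57 and 7.68%. GAATC was found in 60.3 and 66.7%, against 44.7 and 45.1%. AAATATCT, the evening element, was in 8.97% of the KIN10ox-only falls, in 6.17% of all genes tested and in 5.65% of all promoters, and AAACCCTA, the telo-box, in 3.85, 2.47 and 6.22%. Among the 33 damped rises ACGTGNC was in 6.06% and GATAAG in 15.2%. The photosynthesis genes are part of the falls, so these shares are not separate observations.

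Most of the glyoxylate and seed genes named here had differences that depended on libraries 1 and 3. ICL, the isocitrate lyase that turns stored oil towards sugar, measured 28.7, 2.5 and 56.5 FPKM in KIN10ox with KCl and 2.82, 2.43 and 3.18 FPKM in Ler with KCl. With KNO3 it measured 1.22, 1.44 and 1.14 FPKM in KIN10ox and 2.43, 1.72 and 2.68 FPKM in Ler. Library 2 of KIN10ox with KCl lay within the Ler range, and the response difference of ICL was -4.22 ± 1.04, but -0.67 without libraries 1 and 3. MLS, the malate synthase that acts after ICL, went likewise from -3.25 ± 0.90 to -0.62. The seed storage proteins CRU3 and CRA1 had differences of -8.41 ± 2.62 and -6.12 ± 2.45, and of -2.46 and -1.24 without the libraries. CRU3 reached 16.9 FPKM in library 3 of KIN10ox with KCl and no more than 2.15 in any other library. RAB18, a dehydrin induced by abscisic acid, went from -4.03 ± 1.74 to -1.66, and the seed peroxiredoxin PER1 from -5.47 ± 2.16 to -5.32, library 2 being high for PER1 at 4.55 FPKM.

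A few falls were no smaller without libraries 1 and 3. That choice leaves library 2 as the only KIN10ox library with KCl. Library 2 was the highest of that group for AZI1, EARLI1 and LTP4, so leaving out the others raises these differences by construction. AZI1, a lipid transfer-like protein of systemic defence priming, measured 29.8, 43.7 and 33.5 FPKM in KIN10ox with KCl and 13.3, 2.28 and 9.41 FPKM in Ler with KCl. With KNO3 it measured 8.38, 5.84 and 6.58 FPKM in KIN10ox and 5.94, 8.34 and 12.3 FPKM in Ler. The genotypes were apart with KCl and overlapped with KNO3, a KCl-level shift in which AZI1 was higher by 2.1 ± 0.45 (edgeR adjusted p = 0.0103). The response difference of AZI1 was -2.46 ± 0.64, and -2.75 without libraries 1 and 3. The related EARLI1 was 22.9, 26.1 and 10.8 FPKM in KIN10ox and 6.02, 1.90 and 4.35 FPKM in Ler with KCl, again without overlap, and its response difference was -1.92 ± 0.54, and -2.31 without the libraries. LTP4, a lipid transfer protein, differed at the KNO3 level instead. It measured 0.73, 0.37 and 0.36 FPKM in KIN10ox and 7.04, 6.69 and 12.1 FPKM in Ler with KNO3, and 1.26, 9.21 and 2.17 FPKM against 10.4, 4.40 and 8.14 FPKM with KCl. The level of LTP4 with KNO3 differed by -4.13 ± 0.73 on the log2 scale (edgeR adjusted p = 0.00386), and its response by -3.27 ± 0.93 and, without libraries 1 and 3, by -4.40. With 1 library left out at a time the LTP4 response difference ranged from -3.71 to -1.98. Libraries 1 and 3 of KIN10ox with KCl lay below all Ler libraries with KCl for LTP4. All 3 members tested of the list of defence and lipid transfer genes had an unadjusted p under 0.05 (16.8% of all genes tested), and all 3 had been listed for KIN10ox alone, as were the 184 falls of which 74 had such a p.

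AT1G09310, annotated only as a DUF538 protein, was called by edgeR neither for its response (adjusted p = 0.109) nor with KNO3 (adjusted p = 0.0517), but was higher with KCl (adjusted p = 0.0440). Like PRODH1 below, it had been listed for KIN10ox alone as a fall. It measured 19.0, 5.52 and 14.6 FPKM in Ler and 23.8, 42.0 and 36.0 FPKM in KIN10ox with KCl, and 13.4, 10.6 and 19.0 FPKM against 4.80, 3.55 and 8.10 FPKM with KNO3. The genotypes did not overlap at either treatment and changed order between them. Its response difference was -2.77 ± 0.59, and -3.08 without libraries 1 and 3. The only KIN10ox library with KCl then kept was the highest of its group for AT1G09310, at 42.0 FPKM. Leaving out the others therefore makes this difference larger by construction. PRODH1, the proline dehydrogenase and a known output of SnRK1-linked bZIP factors, measured 75.0, 78.4 and 66.2 FPKM in Ler and 113, 111.8 and 91.8 FPKM in KIN10ox with KCl, and 46.5, 46.9 and 37.6 FPKM against 45.6, 31.8 and 32.8 FPKM with KNO3. PRODH1 was thus higher in KIN10ox before nitrate, by 0.53 ± 0.15 (edgeR adjusted p = 0.0388), and overlapped Ler after it. Its response difference was -0.78 ± 0.21, the single one of 5 starvation genes tested with an unadjusted p under 0.05, near the 16.8% of all genes tested that were lower at that p.

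**Figure D5:**
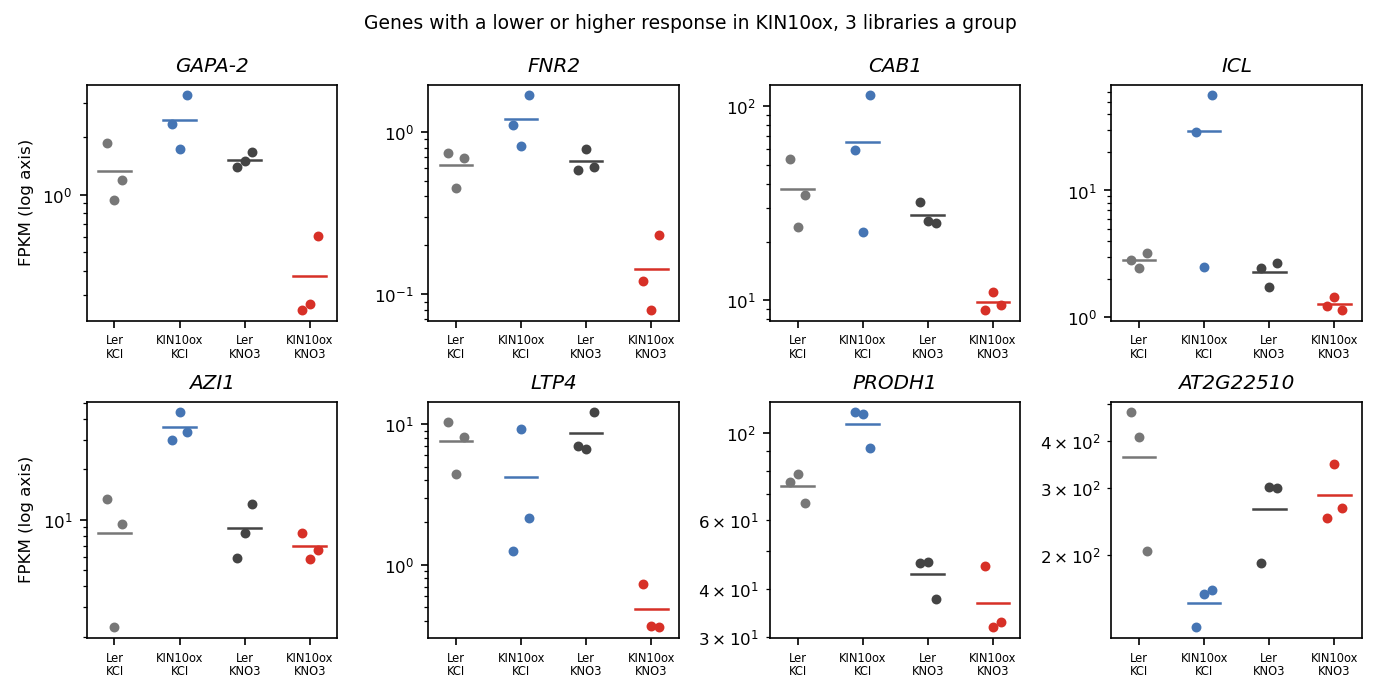
FPKM of 8 genes with a lower or higher response in KIN10ox, on log axes, with 1 point a library and a line at the mean of the 3 libraries of each group. GAPA-2, FNR2, CAB1 and LTP4 are lowest in KIN10ox with KNO3, AZI1 and PRODH1 are highest in KIN10ox with KCl, ICL is high in libraries 1 and 3 of KIN10ox with KCl, and AT2G22510 is lowest in KIN10ox with KCl.

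Responses higher in KIN10ox were fewer, and the genes named here were lower in KIN10ox with KCl. All genes named here had been listed for KIN10ox alone as rises, so a rise in the same libraries is why they appear. AT2G22510, a hydroxyproline-rich glycoprotein gene, measured 474, 408 and 205 FPKM in Ler and 129.6, 158 and 163 FPKM in KIN10ox with KCl, and 191, 303 and 301 FPKM against 251, 348 and 266 FPKM with KNO3. Its KCl libraries did not overlap between genotypes and its KNO3 libraries did. With KCl the level of AT2G22510 differed by -1.27 ± 0.27 (edgeR adjusted p = 0.0100), and its response difference was 1.39 ± 0.38 (DESeq2 adjusted p = 0.0238). The extensin-like gene AT4G08410, which has a similar neighbour that can share reads, had a KCl difference of -1.17 ± 0.29 (edgeR adjusted p = 0.0213) and a response difference of 1.08 ± 0.41. AT1G21313, a transmembrane protein gene, had differences of -1.40 ± 0.36 with KCl (edgeR adjusted p = 0.0248) and 1.74 ± 0.49 in the response. CYP76G1, a cytochrome P450, was far lower in KIN10ox at both treatments, at 0.92, 0.39 and 1.00 FPKM against 8.44, 8.29 and 9.13 FPKM with KCl, and 1.18, 1.54 and 1.63 FPKM against 7.13, 7.48 and 8.98 FPKM with KNO3. No CYP76G1 library of KIN10ox reached the Ler range, and its response difference was 1.03 ± 0.36. Of the 25 genes with a response at least 2-fold higher, 8 were KCl-level shifts, 9 KNO3-level shifts and 8 lay at both levels.

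A separate set of libraries, leaf mesophyll protoplasts with NLP7 or with NLP7 and KIN10, gave values for 28 of the 102 damped rises of the 1.5-fold limit. The protoplast genes had also been selected by the authors, for NLP7 or for NLP7 with KIN10 against protoplasts with GFP. By edgeR, 1572 of the 1722 tested were higher with NLP7, as were all 28, so a fall from the NLP7 libraries is favoured by that selection. KIN10 added to NLP7 lowered 27 of these 28 by edgeR at an adjusted p under 0.05, against 86.4% of all 1722 protoplast genes tested, of which 3.83% were higher. Root genes that rose at least 2-fold in Ler and were not damped gave 112 of 116, so damped and undamped rises had nearly equal shares there, 96.4 and 96.6%.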

How the data were processed

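The 12 root libraries were grouped by the labels, 3 to a group. Per the labels, RNA was sequenced on a BGISEQ-500 instrument, and the submitters' processing notes name HISAT, Bowtie2 and the TAIR10 genome, with no versions or counting options. The authors deposited, per the file headers, FPKM, TPM and expected counts per library, with their own log2 fold change, p-value and q-value, for the genes they selected. The study's description names NOISeq for that selection while the headers name DESeq2. Another 18 columns, all in the protoplast tables, belong to samples outside the sample list and were not used. Root values of genes in both tables were identical.

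The union of both root tables was taken by gene identifier. Library sizes were recovered as mapped fragments from expected counts and FPKM of genes with at least 200 counts, since the tables hold part of each library. Expected counts were rounded, genes were kept by filterByExpr (972 of 1128), and edgeR 4.0.16 quasi-likelihood tests of the 4-group model were run in R 4.3.3 with Benjamini-Hochberg adjustment and a threshold of 0.05. Adjustment covers the listed genes tested, not all genes, and p-values measure the spread between these libraries. The SE of a log2 difference was derived from its edgeR test, as the size of the difference over the square root of the F statistic. FPKM and TPM were used for levels. On simulated counts for 972 genes the test of the response difference recovered 3% of 1.5-fold, 37.5% of 2-fold and 82.5% of 4-fold differences. Exact permutation tests were not used, since with 3 libraries a group their p cannot go below 0.1. DESeq2 1.42.0 and limma 3.58.1 were alternatives. The members, the 18 gene lists (251 genes, 110 of them in the tables), the tests and most alternatives were chosen with earlier results of these data known. Genes named were the 10 with the lowest p, up to 4 per class with at least 5 FPKM and an unadjusted p under 0.05, members of the nitrate, reductant, regulator and cytokinin lists, and members of other lists with an unadjusted p under 0.05. LHB1B1 and RBCS2B fall outside this and were named after their values were seen. Start and end matched the reference for 1120 of 1128 root genes.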

Additional observations from a re-analysis of the deposited data

How the results depend on the processing

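The response difference, with 0 calls by edgeR, gave 41 calls with DESeq2, and 3 and 6 with limma on log2(FPKM + 0.5) and log2(FPKM + 1). It gave 0 with a pseudocount of 0.1, with TMM factors, with no filter and over the genes listed in both tables, and 1 without KIN10ox KCl libraries 1 and 3, which also left 43 KCl calls, 50 damped rises, 47 KIN10ox-only falls and 10 deeper falls. Leaving out Ler KCl library 1 as well, chosen after the data were seen, gave 6 calls, 34 KCl calls and 4 deeper falls. Replicate numbers did not pair the libraries (correlations of same-numbered libraries from -0.282 to 0.314), and the replicate block gave 0 calls for the response difference, 137 with KCl and 117 with KNO3. A 1.5-fold limit gave 256 lower and 61 higher responses, 102 damped rises, and 80 KCl-level and 81 KNO3-level shifts. Genes listed in both tables gave 21 lower and 5 higher responses, 15 damped rises, 0 KIN10ox-only falls, 5 deeper falls, and 10 KCl-level and 3 KNO3-level shifts. All 78 KIN10ox-only falls had been listed for KIN10ox alone, so that choice of genes removes them. Relative to the median difference, chosen after the data were seen as was the authors' scaling, there were 41 higher responses, 17 damped rises and 22 KNO3-level shifts. Leaving out each library in turn gave 0 to 23 calls of the response difference (23 without library 2 of KIN10ox KCl, 15 without library 1 of Ler KCl, 2 without library 3 of KIN10ox KNO3), 81 to 176 with KCl and 58 to 120 with KNO3, where the fewest, 58, 60 and 64, came without Ler KNO3 libraries 1, 2 and 3. The fewest KCl calls came without Ler KCl library 2 (81) and KIN10ox KCl library 1 (87). The same gave 128 to 171 lower and 21 to 38 higher responses (38 without Ler KNO3 library 3), 25 to 45 damped rises, 62 to 102 KIN10ox-only falls, 5 to 28 deeper falls (5 without Ler KCl library 1), 27 to 46 KCl-level and 32 to 61 KNO3-level shifts (61 without KIN10ox KNO3 library 3), 28 to 31 smaller rises in FPKM, and 25 to 27 protoplast genes. With TMM factors the sign turned for NIR1 (0.15), G6PD3 (0.045), NPF6.3 (0.17), NRT2.1 (0.17) and LBD37 (0.091). Among others, RFNR1 (-0.088), RFNR2 (-0.049), NIA2 (-0.027), ASN2 (-0.092) and GLT1 (-0.027) came near 0 with TMM factors. LBD38 turned to -0.0097 and -0.040 with limma at 0.5 and 1 and ranged from -0.093 to 0.14 over the libraries left out, and CLCB from -0.043 to 0.11. The cause of these shifts was not tested. Depth limits genes near or under 1 FPKM, such as NRT2.6 and HCEF1.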
